A study of Homo sapiens with 12 samples.

Results

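The 33 genes described here are interferon-stimulated genes, the antiviral and signalling genes that cells switch on when interferon binds their surface. They were looked up by symbol from a list of interferon response genes, and all 33 were found among the 57773 gene IDs of the deposited table. RNA was sequenced from HEK293 cells, a human embryonic kidney line, and from the extracellular vesicles (EVs) they released. The 4 groups, of 3 libraries each, were hypoxia EVs, normoxia EVs, hypoxia cells and normoxia cells. All of them came from cells that carried the 4EC1 plasmid for 48 h after lipofection, grown in medium with 10% serum, a construct named for eGFP, EIF4E, C, YTHDF1 or GBP1, and CD9, and the hypoxia groups were then held 24 h in a hypoxia chamber. Plasmid DNA is thus common to all 4 groups, and an untransfected group was not analysed here. The system was made to load mRNA into EVs without preference, so that the RNA of living cells could be read from what they release. Nothing in the labels says whether the 3 replicates of a group are independent cultures, and the p-values below measure only the spread between libraries, which may be technical.

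As background, type I interferons bind a receptor of IFNAR1 and IFNAR2, whose kinases JAK1 and TYK2 phosphorylate STAT2 among other proteins. STAT2 and IRF9 are part of the ISGF3 complex, which binds interferon-stimulated response elements (ISREs) in the promoters of its targets. The products sense viral RNA (IFIH1, the OAS enzymes, EIF2AK2), block viral RNA or particles (the IFIT, MX and IFITM families, RSAD2, BST2) or feed back on the pathway (USP18).

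The core of the ISRE, GAAA, any 2 bases and GAAA again, was searched on both strands in RefSeq promoters (GRCh38.p14, 250 bases before to 50 after each annotated start). Of the 33 members 26 had a promoter in that table, and 19 of the 26 (73.1%) held the core at least once, 13 of them at 2 or more places, overlapping matches counted separately. Over all 35116 promoters 3.57% held it, and 4.38% of the 27305 genes had it in a promoter. The 7 members with a promoter but no match were IRF1, IRF9, STAT2, OAS1, CMPK2, IFI35 and XAF1, and no match says only that these letters are not in this window. Promoters are printed below for EIF2AK2, IFI6 and HERC5, which were among the highest members in the cells and hold the core, and for STAT2, which was about as high as HERC5 and does not. Each runs 5′ to 3′ on the strand of its gene, from 250 bases before the start to 30 after it, and capitals mark the core on either strand (TTTC, 2 bases, TTTC where it lies on the other). The match of EIF2AK2 starts at -6 from the gene start.
EIF2AK2, chr2:37156951-37157230, minus strand: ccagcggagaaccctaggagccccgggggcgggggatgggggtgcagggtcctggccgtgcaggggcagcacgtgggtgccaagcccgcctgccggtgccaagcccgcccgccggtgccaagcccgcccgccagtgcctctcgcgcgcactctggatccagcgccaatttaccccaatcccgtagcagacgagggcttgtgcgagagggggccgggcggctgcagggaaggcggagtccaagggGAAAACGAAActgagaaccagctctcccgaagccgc
IFI6, chr1:27672163-27672442, minus strand: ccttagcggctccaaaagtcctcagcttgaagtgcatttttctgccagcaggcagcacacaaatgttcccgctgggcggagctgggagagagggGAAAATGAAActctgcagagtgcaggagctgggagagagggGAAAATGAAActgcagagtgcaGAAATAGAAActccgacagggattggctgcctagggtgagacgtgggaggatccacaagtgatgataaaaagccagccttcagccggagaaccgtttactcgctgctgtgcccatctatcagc
HERC5, chr4:88456869-88457148, plus strand: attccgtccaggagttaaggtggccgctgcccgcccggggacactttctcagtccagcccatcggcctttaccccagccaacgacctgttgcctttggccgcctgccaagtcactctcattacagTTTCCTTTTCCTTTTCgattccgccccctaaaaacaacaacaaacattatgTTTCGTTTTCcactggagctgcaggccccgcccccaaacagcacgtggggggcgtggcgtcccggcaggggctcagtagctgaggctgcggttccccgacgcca
STAT2, chr12:56360078-56360357, minus strand: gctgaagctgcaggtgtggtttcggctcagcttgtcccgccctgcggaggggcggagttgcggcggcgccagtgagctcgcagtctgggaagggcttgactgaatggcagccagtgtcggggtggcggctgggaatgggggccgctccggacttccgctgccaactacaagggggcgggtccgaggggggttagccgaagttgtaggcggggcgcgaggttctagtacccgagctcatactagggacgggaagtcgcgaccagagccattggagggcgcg
The median level of the 19 members with a match was 1.24 RPKM (reads per kilobase of exon, scaled to the library total) in hypoxia cells and 1.22 in normoxia cells. It was 0.611 and 0.572 in hypoxia and normoxia cells for the 7 without. In EVs the order was the other way, 2.43 with a match against 2.71 without in hypoxia EVs, and 1.15 against 1.25 in normoxia EVs. These are descriptions of 26 genes, with no test.

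The libraries held 3259453 to 6129782 reads in hypoxia EVs, 5266244 to 7001767 in normoxia EVs and 18059381 to 23400813 in cells. Values below are the deposited normalised values unless RPKM is written. A read was worth 1.34 to 2.52 units in hypoxia EVs, 1.80 to 2.38 in normoxia EVs and 0.481 to 0.551 in cells. The 7 HEK293 genes that could be checked (IRS4, NEFM, PAX2, VIM, KRT18, KRT8 and CDH2) had a mean of at least 10 in all 4 groups. The 16 leukocyte and blood cell markers all had reads in every group, summing to 903 to 1124 units in hypoxia EVs, 419 to 727 in normoxia EVs, 99.4 to 147 in hypoxia cells and 116 to 138 in normoxia cells. The 13 liver and plasma protein markers summed to 694 to 883, 140.3 to 467, 52.5 to 109 and 50.8 to 77.2 in the same order of groups, and none was at 0. Normoxia EV replicates 1, 2 and 3 stood apart from each other. Their density over 6588 protein-coding genes averaging 20 units or less in the cells (near-silent genes, members left out) was 0.339, 0.549 and 1.13 RPKM, against 2.00, 2.02 and 2.12 in hypoxia EVs. In cells it was 0.201, 0.171 and 0.174 in hypoxia and 0.144, 0.139 and 0.115 in normoxia.

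All 33 members had reads in all 4 groups, at least 10 summed over each group, and IFI27 in normoxia EV replicate 1 was the single value of 0. Together they took 1561 to 2486 reads per library in hypoxia EVs, 1009 to 1615 in normoxia EVs, 6031 to 6104 in hypoxia cells and 6096 to 7327 in normoxia cells. As a share of all reads this was 0.0430% ± 0.0042 in hypoxia EVs, 0.0228% ± 0.0071 in normoxia EVs, 0.0321% ± 0.0015 in hypoxia cells and 0.0320% ± 0.0011 in normoxia cells (SD, n = 3 each). The hypoxia EV libraries held 0.0406%, 0.0407% and 0.0479%, all above the 3 normoxia EV libraries at 0.0170%, 0.0207% and 0.0307%, while the cell groups overlapped. With libraries scaled to equal totals, the median log2 fold change in EVs was 1.27 for the members and 1.13 for all 27904 genes tested. On that scale the rise was thus not particular to the members. Only 19 of the 33 members had 10 reads or more in every EV library, so single EV values of the others rest on few reads. Counting error alone is large there, and reads without molecular identifiers are not independent molecules.

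**Figure D1:**
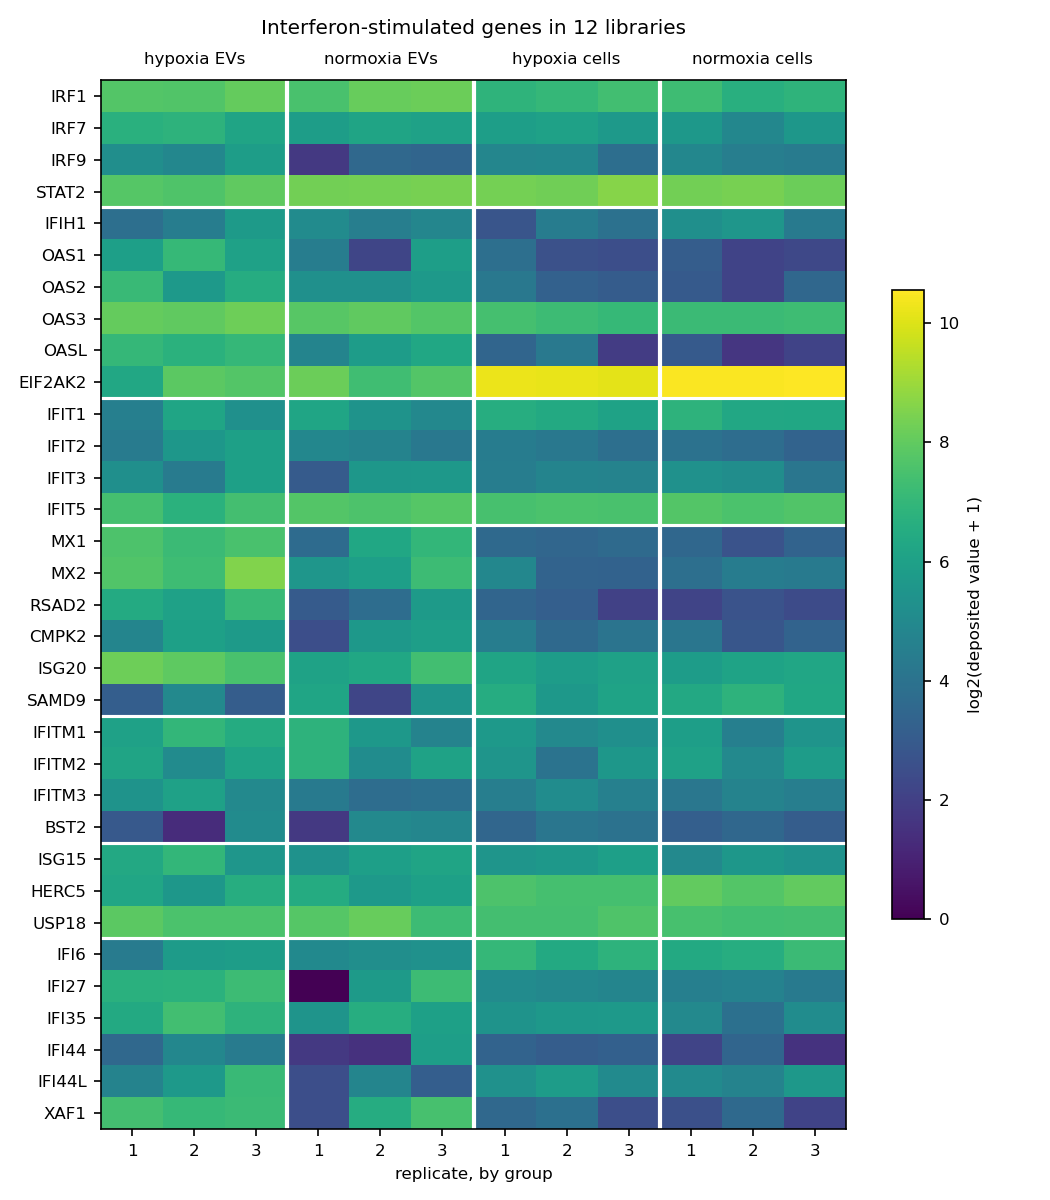
Heat map of log2(deposited value + 1) for the 33 members (rows, ordered by role and divided by white lines) in the 12 libraries (columns, 3 replicates per group). EIF2AK2 is the brightest row in the cells, the dark cell columns of MX1, RSAD2, OAS1, OASL and XAF1 turn lighter in hypoxia EVs, and the normoxia EV columns differ among themselves.

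EIF2AK2 carried a large part of the members' reads in the cells. Without it the members took 0.0203% of reads in hypoxia cells and 0.0186% in normoxia cells. Levels between genes are compared here per length, as RPKM. EIF2AK2, which encodes the RNA-activated kinase PKR that halts translation (ENSG00000055332, chromosome 2, 37099210 to 37157065, GENCODE 29 on GRCh38), was the highest member in normoxia cells at 12.5 ± 0.0817 RPKM, against 10.96 ± 0.511 in hypoxia cells (SD, n = 3 each here and below). IFI6, a small membrane protein that interferon induces (ENSG00000126709, chromosome 1, 27666061 to 27672218), had 12.6 ± 2.84 RPKM in hypoxia cells and 11.3 ± 3.06 in normoxia cells, and its spread covered the level of EIF2AK2 in normoxia cells. USP18, the protease that removes ISG15 and damps receptor signalling (ENSG00000184979, chromosome 22, 18149899 to 18177397), followed with 8.49 ± 0.776 RPKM in hypoxia cells and 7.34 ± 0.451 in normoxia cells. STAT2 (4.77 ± 0.458), HERC5 (4.699 ± 0.442) and IFIT5 (4.63 ± 0.268) came next in normoxia cells and were within each other's spread. ISG15, the ubiquitin-like tag that HERC5 attaches, had 5.48 ± 0.869 RPKM in hypoxia cells and 3.85 ± 0.847 in normoxia cells. IFITM1 and IFITM2, which block fusion of viral membranes, had 3.57 ± 1.61 and 3.01 ± 1.07 RPKM in normoxia cells and also overlapped in spread.

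From there the order went down without a clear break. IFIT1, OAS3, IFITM3, IRF1, IRF7, SAMD9, IFI35 and IFIT3 had means of 1.07 to 1.80 RPKM in normoxia cells. ISG20, BST2, IFIH1, IRF9 and IFI27 had 0.496 to 0.828 RPKM there, and IFI44L, IFIT2, IFI44 and CMPK2 had 0.228 to 0.316. At the bottom stood MX2 (0.125 ± 0.0246), OASL (0.111 ± 0.0688), OAS2 (0.102 ± 0.0505), OAS1 (0.0918 ± 0.0451), XAF1 (0.091 ± 0.0579), MX1 (0.0899 ± 0.0281) and RSAD2 (0.085 ± 0.0196 RPKM). Neighbours in that last group did not differ beyond their spread. All 7 lay below the near-silent density of 0.133 ± 0.015 RPKM in normoxia cells, and at the level of RSAD2 the reads were 26 over 3 libraries. Of the 33 members, 24 had at least 2 times the reads that their length and the near-silent density would give in normoxia cells, 2 had between 1 and 2 times, and 7 had fewer. In hypoxia cells the counts were 25, 2 and 6. Against the higher near-silent density of EVs they were 12, 8 and 13 in hypoxia EVs and 14, 10 and 9 in normoxia EVs.

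The 2 compartments ranked the members in a partly shared order. Across the 33 members Spearman's rho between EV and cell RPKM was 0.54 in hypoxia and 0.69 in normoxia, against 0.62 and 0.82 across 16823 protein-coding genes, as a description of genes that share libraries. USP18, ISG15 and IFITM1 were the 3 highest members per length in hypoxia EVs, at 11.7 ± 1.78, 10.8 ± 4.99 and 10.4 ± 3.31 RPKM. In normoxia EVs they had 8.103 ± 1.89, 5.15 ± 2.11 and 4.39 ± 2.62 RPKM. EIF2AK2, the highest in normoxia cells, had 1.965 ± 0.932 RPKM in hypoxia EVs and 1.66 ± 0.435 in normoxia EVs.

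**Figure D2:**
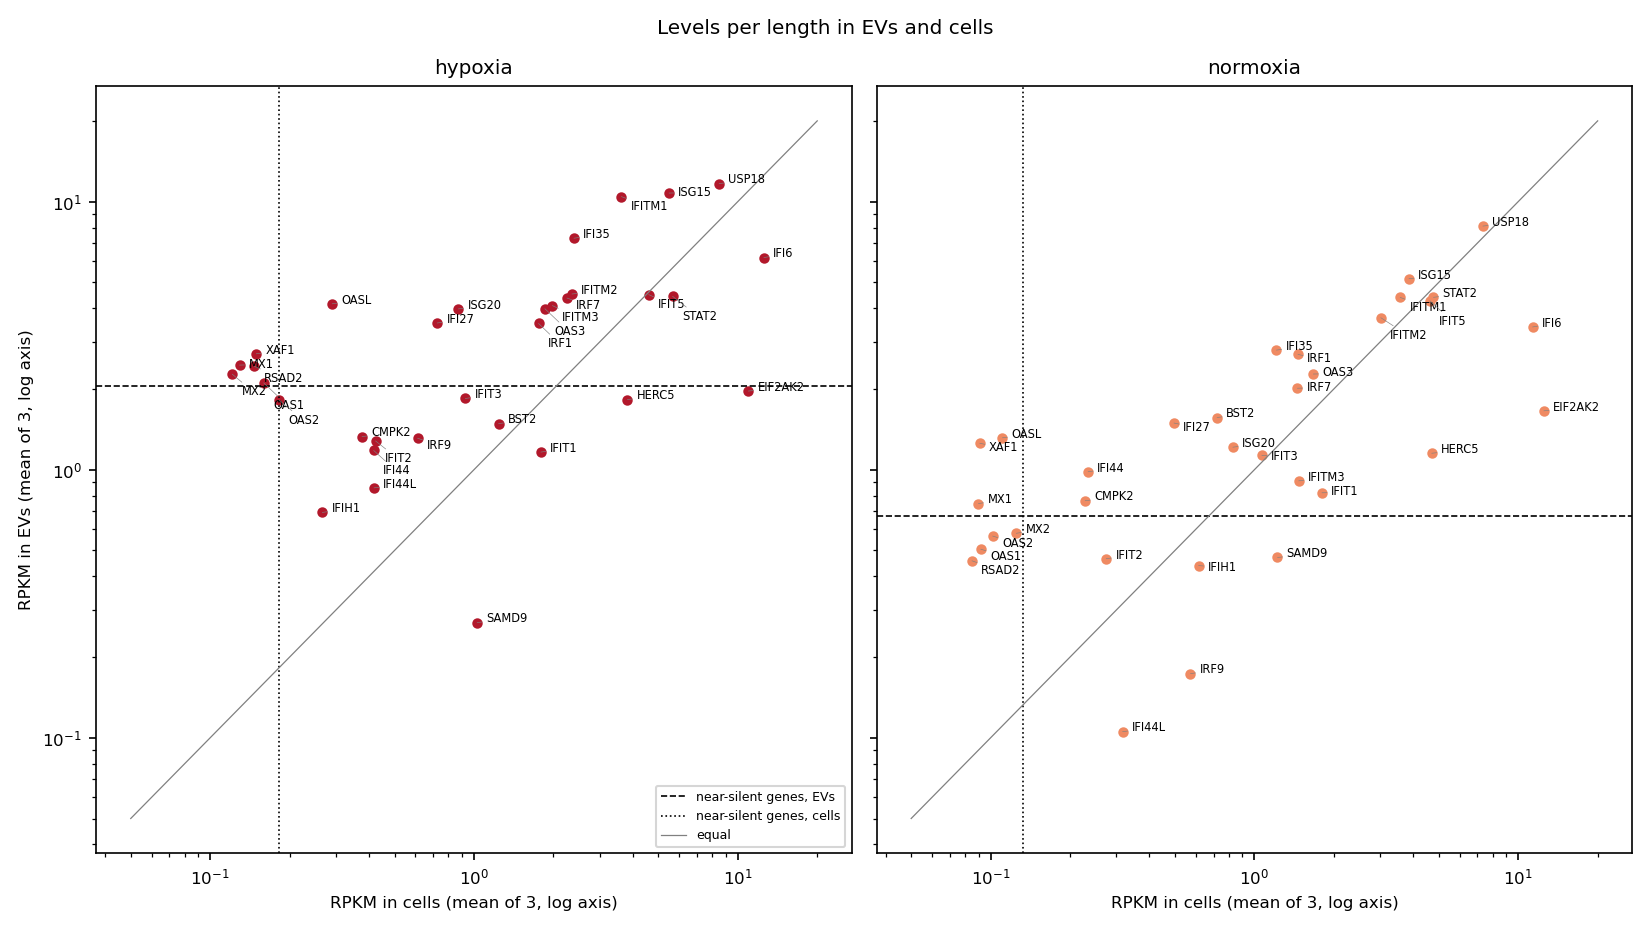
Level per length (RPKM, mean of 3 libraries, both axes logarithmic) of each member in EVs against cells, in hypoxia and in normoxia, with the near-silent density in EVs (dashed) and in cells (dotted) and the line of equal level (grey). EIF2AK2, HERC5 and IFI6 lie below the line of equal level, and MX1, MX2, RSAD2, OAS1, OAS2, OASL and XAF1 lie far left and near or above the dashed line in hypoxia.

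Hypoxia was then compared with normoxia in the cells to see whether low oxygen changed these genes. Most did not pass the test. EIF2AK2 and HERC5 fell by a small amount, IFIH1 fell by more at a low level, and IFI35 rose. Of the 26 members with a mean of at least 10 in cells, 1 was higher and 3 were lower at a limma adjusted p under 0.05, and 22 were not called. Over all 17260 genes tested 30.4% were called (8.01% higher, 22.4% lower, or 2304 genes higher and 2043 lower with equal totals, where 1 member was higher and 2 lower), so 4 of 26 is below the share of genes at large. The median log2 fold change was 0.02 for the 26 members and -0.07 for all genes. OAS1, OAS2, OASL, MX1, RSAD2, IFI44 and XAF1 were under the filter. These are bulk libraries, in which fewer cells with a transcript and less of it per cell cannot be told apart, and likewise fewer EVs and less RNA per EV.

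EIF2AK2 had 78.8, 234 and 212 in hypoxia EVs, 288, 157 and 213 in normoxia EVs, 1201, 1187 and 1127 in hypoxia cells and 1428, 1444 and 1503 in normoxia cells. All 3 hypoxia cell libraries lay below all 3 normoxia cell libraries (log2 fold change -0.32 with SE 0.07 and limma adjusted p = 0.000108), and the EV libraries of both groups overlapped. The gene overlaps GPATCH11 on the other strand, which had 9206 reads in cells. No source used here states whether the authors counted by strand. HERC5, the main ligase that joins ISG15 to new proteins (ENSG00000138646, chromosome 4, 88457117 to 88506163), had 74.8, 47.2 and 93.3 in hypoxia EVs, 90.4, 50.4 and 62.5 in normoxia EVs, 194, 173 and 175 in hypoxia cells and 255, 214 and 260.3 in normoxia cells. Its hypoxia cell libraries were likewise all below the normoxia ones (log2 fold change -0.42 with SE 0.13 and limma adjusted p = 0.00689). Both calls held without any single cell library. HERC5 was not called with libraries scaled to equal totals, and neither was called when the spread was estimated over all 12 libraries.

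IFIH1, the MDA5 sensor of long double-stranded RNA (ENSG00000115267, chromosome 2, 162267079 to 162318703), had 13.4, 21.3 and 52.96 in hypoxia EVs, 33.3, 21.6 and 27.4 in normoxia EVs, 5.95, 20.6 and 14.2 in hypoxia cells and 36.7, 45.7 and 18.8 in normoxia cells. Hypoxia cell replicate 2 lay above normoxia cell replicate 3, so the cell groups overlapped in spite of the call (log2 fold change -1.31 with SE 0.41 and limma adjusted p = 0.0109). The call was lost without hypoxia cell replicate 1 or normoxia cell replicate 1 or 2, while the direction stayed. IFI35, an interferon-induced protein that binds NMI (ENSG00000068079, chromosome 17, 43006725 to 43014456), had 84.2, 163 and 111 in hypoxia EVs, 42.8, 93.7 and 62.5 in normoxia EVs, 41.6, 47.9 and 51.4 in hypoxia cells and 30.7, 13.8 and 33.7 in normoxia cells. Its hypoxia cell libraries all lay above the normoxia ones (log2 fold change 0.92 with SE 0.32 and limma adjusted p = 0.0203), and the call was lost without hypoxia cell replicate 2 or 3 or normoxia cell replicate 2. Without normoxia cell replicate 2 the number of members called was 2.

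Groups of the cells did not overlap for 6 of the 26 members, the 3 higher being IRF7, IFI27 and IFI35 and the 3 lower EIF2AK2, IFIT5 and HERC5. Over all genes tested this held for 40.3%. IRF7, the factor that drives interferon alpha genes, had 60.03, 65.4 and 50.9 in hypoxia cells and 48.8, 28.7 and 47.2 in normoxia cells (log2 fold change 0.52 with SE 0.26 and limma adjusted p = 0.125), which did not pass. IFIT5 had 174, 107 and 166 in hypoxia EVs, 212, 193 and 217 in normoxia EVs, 180.1, 187 and 183 in hypoxia cells and 209, 188 and 207 in normoxia cells, and its hypoxia cell values lay just below the normoxia ones (log2 fold change -0.13 with SE 0.13 and limma adjusted p = 0.479). Among the other members of highest level, USP18 had 239, 187 and 189 in hypoxia EVs, 219, 276 and 149 in normoxia EVs, 169.8, 169 and 201 in hypoxia cells and 178, 162 and 169 in normoxia cells, and neither oxygen contrast was called (0.08 with SE 0.14 and limma adjusted p = 0.709 in cells). ISG15 had 44.9, 47.9 and 61.4 in hypoxia cells and 30.2, 47.4 and 40.4 in normoxia cells and IFI6 129, 82.9 and 112 in hypoxia cells and 83.5, 93.1 and 144 in normoxia cells, and in both genes the cell groups overlapped.

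**Figure D3:**
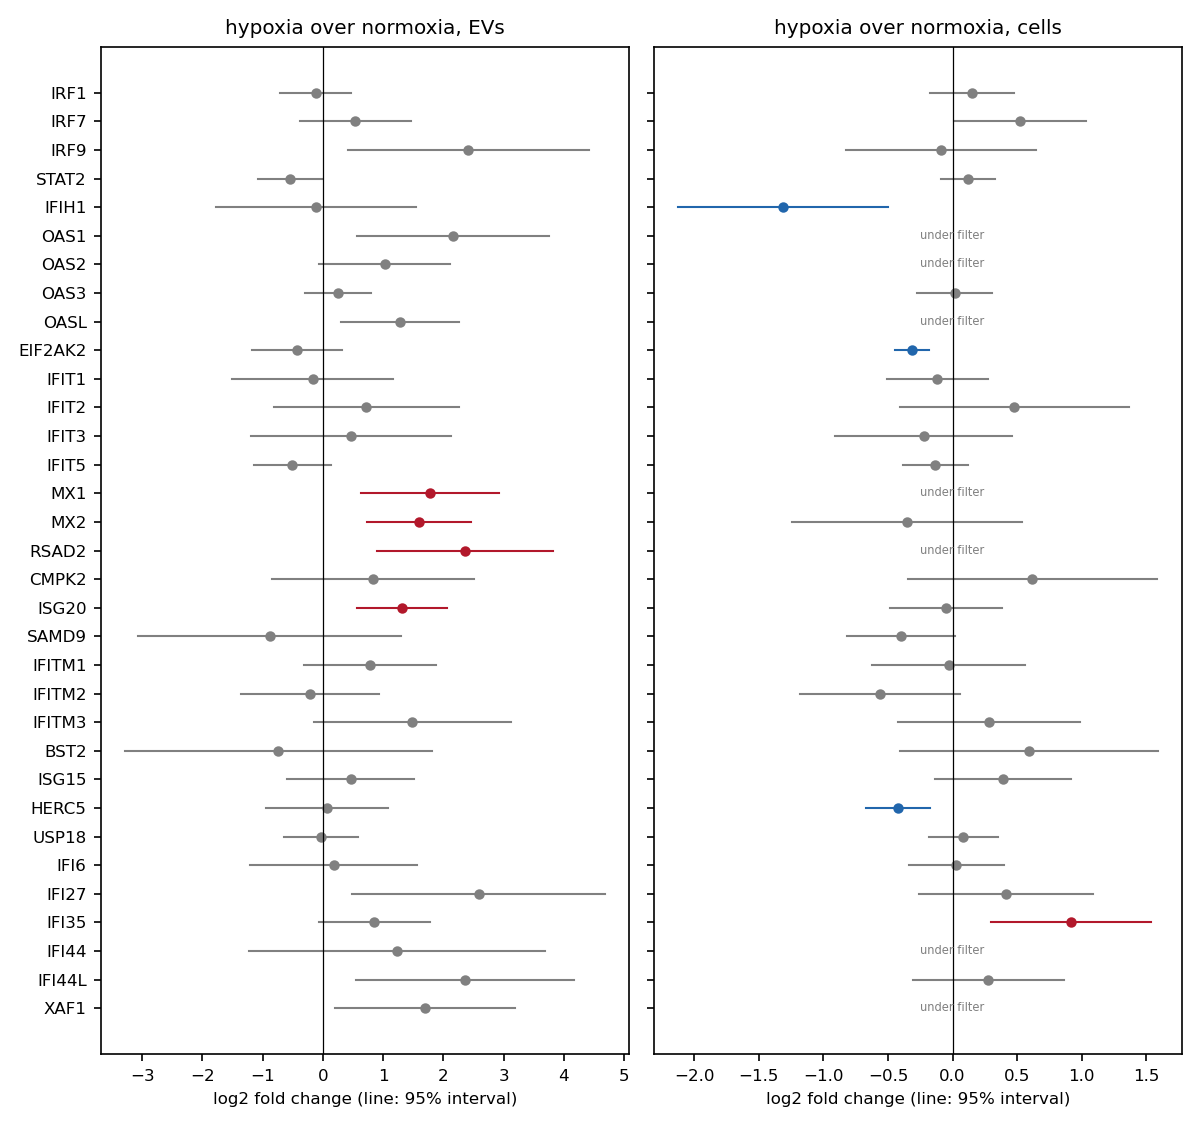
Log2 fold change of hypoxia over normoxia for each member in EVs (left) and in cells (right, on a narrower axis), with lines for the 95% interval, red where called higher, blue where called lower and grey otherwise. In EVs MX1, MX2, RSAD2 and ISG20 are red and the lines are long, and in cells IFI35 is red and EIF2AK2, HERC5 and IFIH1 are blue.

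Hypoxia was next compared with normoxia in EVs. MX1 and MX2, the interferon-induced dynamin-like GTPases, RSAD2, the antiviral enzyme viperin, and ISG20, an RNA exonuclease, were higher in hypoxia EVs, and no member was called lower. All 33 members had a mean of at least 10 in the EV libraries, and 4 were called, all higher. Over all 27904 genes tested 12.3% were called, 5.68% higher and 6.62% lower, so 4 of 33 is near the share called in either direction. The split depended on scaling, with 1160 genes higher and 3207 lower with TMM factors (3 members higher, 0 lower) and 4201 and 188 with equal totals (7 members higher, 0 lower). The median log2 fold change was 0.72 for the members and 0.60 for all genes tested on the deposited scale, 0.54 and 0.42 with TMM factors, and 1.27 and 1.13 with equal totals. Over genes averaging 50 or more it was 0.78 for the 21 members tested and -0.15 for all such genes, so the shift of all genes depends on the filter. The EV groups did not overlap for 11 of the 33 members, 9 higher and 2 lower, against 37.9% of all genes tested.

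MX2 (ENSG00000183486, chromosome 21, 41361943 to 41409390) had 204, 155 and 373 in hypoxia EVs, 45.2, 61.3 and 150.5 in normoxia EVs, 28.7, 9.27 and 8.92 in hypoxia cells and 13.6, 20.4 and 19.2 in normoxia cells. All 3 hypoxia EV libraries lay above the 3 normoxia EV libraries, if narrowly for the lowest hypoxia and the highest normoxia one (log2 fold change 1.60 with SE 0.44 and limma adjusted p = 0.0279). MX1, its neighbour on the same chromosome (ENSG00000157601, chromosome 21, 41420304 to 41459214), had 195, 145 and 184 in hypoxia EVs, 11.9, 77.5 and 127 in normoxia EVs, 11.4, 10.3 and 11.5 in hypoxia cells and 10.6, 5.51 and 9.14 in normoxia cells. Normoxia EV replicate 1 was close to the level of the cells, and the other 2 normoxia EV libraries lay between it and the hypoxia EVs (log2 fold change 1.78 with SE 0.58 and limma adjusted p = 0.0473).

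RSAD2 (ENSG00000134321, chromosome 2, 6865806 to 6898239) had 85.5, 63.9 and 141 in hypoxia EVs, 7.14, 12.6 and 52.8 in normoxia EVs, 9.74, 8.24 and 3.15 in hypoxia cells and 3.52, 5.51 and 4.33 in normoxia cells. The hypoxia EVs lay above the normoxia EVs in every library (log2 fold change 2.36 with SE 0.74 and limma adjusted p = 0.0424). ISG20 (ENSG00000172183, chromosome 15, 88636153 to 88656483) had 301, 244 and 182 in hypoxia EVs, 66.6, 77.5 and 164 in normoxia EVs, 70.3, 56.6 and 64.5 in hypoxia cells and 55.4, 69.4 and 74.1 in normoxia cells, and differed from the other 3 in its level in cells, where the groups overlapped. Its EV groups were again apart (log2 fold change 1.31 with SE 0.38 and limma adjusted p = 0.0328). RSAD2 lies head to head with CMPK2, a mitochondrial nucleotide kinase on the opposite strand that overlaps it. CMPK2 had 26.7 to 62.4 in hypoxia EVs, 4.76 to 58.6 in normoxia EVs, 11.3 to 21.1 in hypoxia cells and 6.06 to 16.6 in normoxia cells and was not called in EVs (0.83 with SE 0.86 and limma adjusted p = 0.48).

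**Figure D4:**
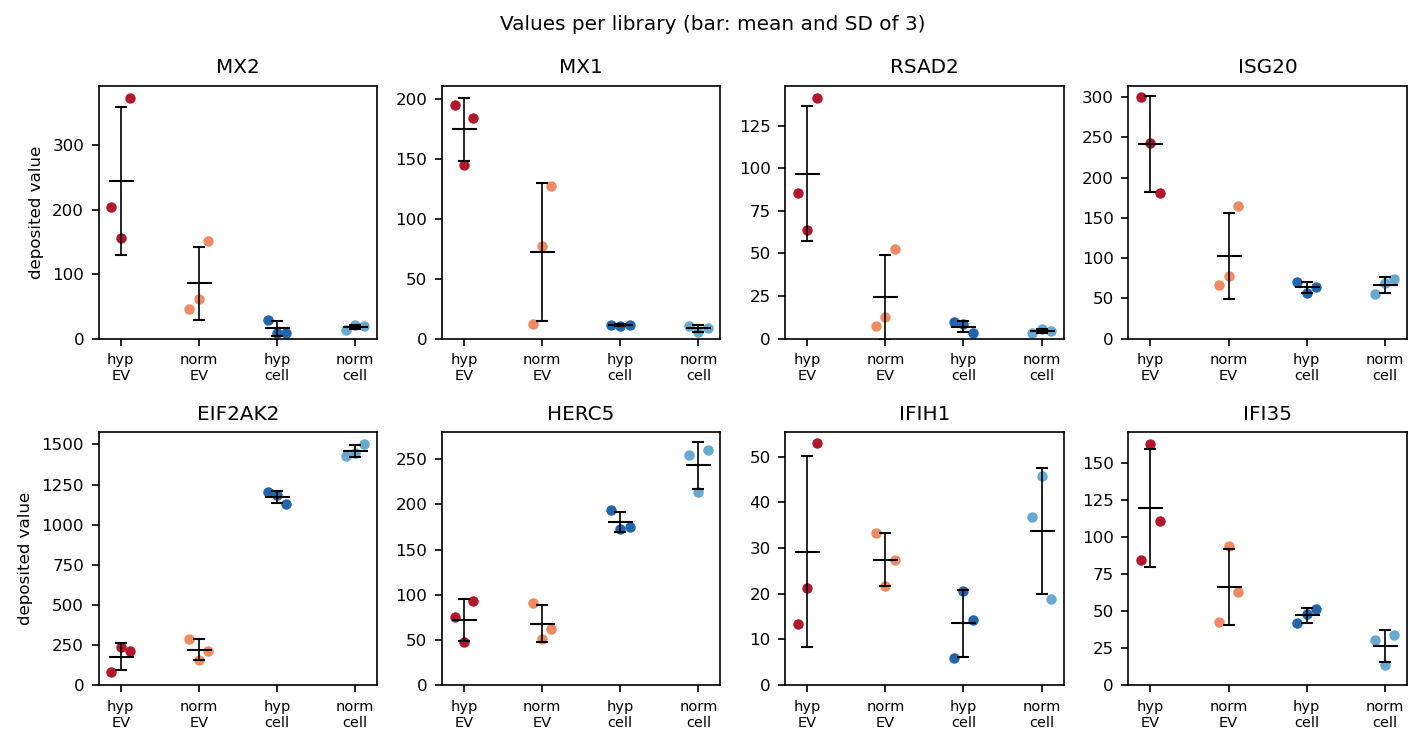
Deposited value in each library (points) with the mean and SD of 3 (bars) for the 8 members called between hypoxia and normoxia, in EVs (top row) or in cells (bottom row), on linear axes that start at 0. The hypoxia EV points of MX2, MX1, RSAD2 and ISG20 lie above the normoxia EV points, which spread upwards to replicate 3, and the cell points of the first 3 stay near 0.

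None of the 4 calls was left when any of hypoxia EV replicates 1, 2 or 3 or normoxia EV replicates 1 or 2 was left out, each of which gave 0 members called. Without normoxia EV replicate 3 the count was 9, all higher, with OAS1, OASL, IRF9, IFI27 and XAF1 added to the 4. Calls over all 27904 genes tested moved too, to 6176 higher and 3948 lower in that fit. Without normoxia EV replicate 1 they were 309 higher and 210 lower, and without replicate 2 they were 0 and 6. Without hypoxia EV replicates 1, 2 and 3 they were 24 and 93, 30 and 94, and 1 and 19. MX1 was also not called with a pseudocount of 0.5, TMM factors, edgeR or DESeq2, and RSAD2 with a pseudocount of 0.5, a filter of 50 or edgeR. The direction of MX2, MX1, RSAD2 and ISG20 stayed the same in every alternative. Normoxia EV replicate 3 also had the highest near-silent density of its group and the highest value for MX2, MX1, RSAD2 and ISG20 among normoxia EVs.

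Of the members not called in EVs, these had the following ranges. OAS1, one of the synthetases that make the oligoadenylates which activate RNase L, had 61.4 to 132 in hypoxia EVs and 3.603 to 58.6 in normoxia EVs (log2 fold change 2.16 with SE 0.81 and limma adjusted p = 0.0729). OASL, a relative without synthetase activity, had 105 to 129 in hypoxia EVs and 26.2 to 78.2 in normoxia EVs (log2 fold change 1.29 with SE 0.50 and limma adjusted p = 0.0799). IFI27, a mitochondrial and nuclear membrane protein, had 104 to 151 in hypoxia EVs and 0 to 149 in normoxia EVs, where the 0 allows up to 3 reads or 7.14 units (log2 fold change 2.59 with SE 1.07 and limma adjusted p = 0.0966). OAS1 and OASL did not overlap between the EV groups, IFI27 did, and none of the 3 was called. IFITM3 had 30.3 to 65.5 in hypoxia EVs and 12.6 to 19.03 in normoxia EVs, ISG15 had 45.4 to 125 in hypoxia EVs and 40.4 to 70.4 in normoxia EVs and IFITM2 had 33.5 to 70.8 in hypoxia EVs and 34.2 to 112 in normoxia EVs. Only the first of these 3 was apart between the groups (log2 fold change 1.49 with SE 0.83 and limma adjusted p = 0.196). IFIT2 had 20.04 to 63.1 in hypoxia EVs and 17.6 to 28.5 in normoxia EVs and IFIT3 had 19.8 to 63.1 in hypoxia EVs and 7.14 to 48.9 in normoxia EVs, overlapping in both. IRF7 had 70.6 to 113 in hypoxia EVs and 57.1 to 70.3 in normoxia EVs, without overlap (log2 fold change 0.54 with SE 0.47 and limma adjusted p = 0.398). BST2, the tetherin that holds virions at the cell surface, and IFI44 rested on 51 and 67 reads over the 6 EV libraries, so few that their ranges say little. BST2 had 1.52 to 32.8 in hypoxia EVs and 2.38 to 30.6 in normoxia EVs. IFI44 had 10.7 to 28.9 in hypoxia EVs and 1.802 to 58.6 in normoxia EVs, and both overlapped. STAT2 and IFIT5 were the 2 members whose hypoxia EV libraries all lay below the normoxia EV ones, without a call (log2 fold change -0.54 with SE 0.27 and limma adjusted p = 0.154 for STAT2 and -0.50 with SE 0.33 and limma adjusted p = 0.259 for IFIT5).

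The members that are near silent in the cells were set beside other near-silent genes in EVs. These 11 (OAS1, OAS2, OASL, MX1, MX2, RSAD2, CMPK2, BST2, IFI44, XAF1 and IFIT2) averaged 20 units or less over the 6 cell libraries. Pooled over their summed length they had 2.15, 1.86 and 2.65 RPKM in hypoxia EVs and 0.229, 0.596 and 1.40 in normoxia EVs. In cells they had 0.281, 0.213 and 0.160 in hypoxia and 0.154, 0.142 and 0.122 in normoxia. The 6588 near-silent genes had 2.04 ± 0.069 in hypoxia EVs, 0.674 ± 0.41 in normoxia EVs, 0.182 ± 0.017 in hypoxia cells and 0.133 ± 0.015 in normoxia cells. The cell levels follow from how both sets were chosen, while the EV levels do not. Among the EV libraries, both the 11 members and the near-silent genes were lowest in normoxia EV replicate 1 and highest in hypoxia EV replicate 3. The pooled means of the 11 were 2.22 RPKM in hypoxia EVs and 0.743 in normoxia EVs, close to those of the near-silent genes. Of the 11, 10 had a positive log2 fold change in EVs (median 1.29) and 3 were called. Over all 27904 genes tested in EVs 5.68% were called higher, with a median of 0.60. Signs and calls of the near-silent genes by themselves are not given here, so these counts are not read as particular to the 11. The 22 other members had a median of 0.21, with 13 above 0. Single members scattered around the reads that their length and the near-silent density give. In hypoxia EVs OASL had 2.03 times that number, XAF1 1.34, MX1 1.21, RSAD2 1.11, OAS1 1.06, MX2 1.02, OAS2 0.919, CMPK2 0.63, IFIT2 0.573, IFI44 0.568 and BST2 0.562. In normoxia EVs BST2 had 2.42 times, OASL 1.97, XAF1 1.84, IFI44 1.33, CMPK2 1.16, MX1 1.11, OAS2 0.85, MX2 0.843, IFIT2 0.722, OAS1 0.701 and RSAD2 0.647. By summed reads OASL, XAF1 and MX1 were thus above the density in both EV groups, and IFIT2 and OAS2 below it in both. Single libraries did not all follow. OAS2 spanned 0.475 to 1.37 times that density in hypoxia EVs and 0.695 to 1.27 times in normoxia EVs. With that density subtracted from each gene, 0 of 33 members and 0 of all genes were called in EVs by limma, while 3 members had an unadjusted p under 0.05. The leukocyte and liver marker sums given above were also higher in hypoxia EVs, and their part in these results was not tested.

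**Figure D5:**
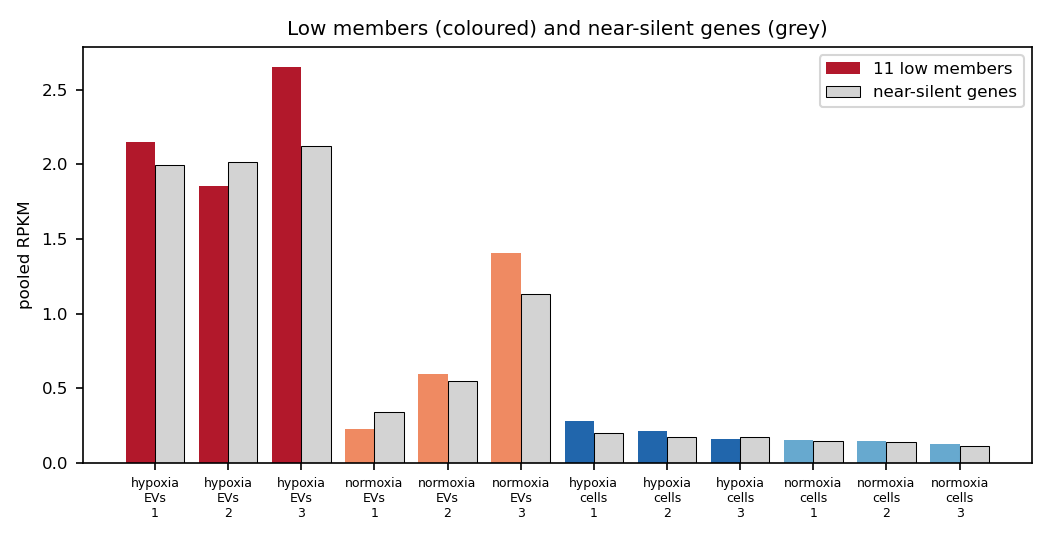
Pooled RPKM (summed reads over summed length) in each library for the 11 members averaging 20 or less in cells (coloured) and for 6588 near-silent protein-coding genes (grey). In hypoxia EV replicate 3 the members stand at 2.65 and the near-silent genes at 2.12, and in normoxia EV replicate 1 at 0.229 and 0.339.

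EVs were next compared with cells at each oxygen level, the comparison that asks how far the released RNA mirrors the cells. The kinase EIF2AK2, the ligase HERC5 and IFI6, among the highest members in cells, were lower in EVs at both oxygen levels. OAS3, IRF1, MX2 and IFI35 were higher in EVs at both. OAS1, OAS2, OASL, MX1, RSAD2, IFI44 and XAF1 averaged under 10 in the cells and entered this fit only through their EV values. Such a gene has to average more in EVs, so the higher calls of these genes are descriptions and support nothing. In hypoxia 12 of 33 members were higher in EVs and 6 lower. In normoxia 9 were higher and 6 lower. Over all 24171 genes tested 69.7% were called in hypoxia (40.6% higher, 29.1% lower) and 56.3% in normoxia (29% higher, 27.2% lower). With TMM factors 8 members were higher and 7 lower in hypoxia, and 7 and 7 in normoxia, while equal totals gave 14 and 4 in hypoxia and 7 and 7 in normoxia. Over all genes TMM factors gave 8025 higher and 9126 lower in hypoxia and 5685 higher and 8020 lower in normoxia. The median log2 fold change of the members was 0.82 in hypoxia and 0.52 in normoxia, against 0.43 and 0.21 for all genes. The 2 compartments did not overlap for 23 members in hypoxia, against 78.1% of all genes tested, and for 16 in normoxia, against 58%. Over genes averaging 50 or more the medians were 0.70 and 0.40 for the 20 members tested, against -0.50 and -0.34 for all such genes, so the sign for all genes depends on the filter. With TMM factors the medians were 0.35 and 0.22 for members against -0.05 and -0.08 for all genes. 9 members were higher at both oxygen levels (OASL, OAS2, OAS3, IRF1, MX1, MX2, IFI35, XAF1 and RSAD2), and 4 were lower at both (EIF2AK2, HERC5, IFI6 and SAMD9). 13 members were called at neither level.

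Among the RNA sensing genes, OASL (ENSG00000135114, chromosome 12, 121019111 to 121039242) had 128, 105 and 129 in hypoxia EVs, 26.2, 55.9 and 78.2 in normoxia EVs, 9.74, 18.02 and 2.62 in hypoxia cells and 7.05, 2.204 and 3.37 in normoxia cells. Every EV library lay above every cell library, in a gene that passed the filter only through its EVs (log2 fold change 3.74 with SE 0.65 and limma adjusted p = 5.46e-05 in hypoxia and 3.36 with SE 0.65 and limma adjusted p = 0.000221 in normoxia). OAS2 had 140.3, 50.2 and 90.8 in hypoxia EVs, 38.1, 37.8 and 50.8 in normoxia EVs, 17.8, 8.75 and 7.34 in hypoxia cells and 7.05, 3.31 and 10.6 in normoxia cells, with EVs again above cells throughout (log2 fold change 2.92 with SE 0.58 and limma adjusted p = 0.000225 and 2.54 with SE 0.58 and limma adjusted p = 0.00106 in normoxia). OAS3, the large synthetase and the one with the highest level in cells, had 269, 251 and 295 in hypoxia EVs, 226, 252 and 209 in normoxia EVs, 174, 149 and 134 in hypoxia cells and 147, 147 and 155 in normoxia cells. It was higher in EVs by less (log2 fold change 0.84 with SE 0.20 and limma adjusted p = 0.00115 and 0.61 with SE 0.20 and limma adjusted p = 0.0145 in normoxia), and was called in neither with TMM factors. OAS1 had 61.4, 132 and 65.6 in hypoxia EVs, 21.4, 3.603 and 58.6 in normoxia EVs, 13.5, 5.15 and 4.72 in hypoxia cells and 7.55, 3.31 and 3.85 in normoxia cells, and was called in hypoxia only (log2 fold change 3.36 with SE 0.80 and limma adjusted p = 0.00109), with a difference between the 2 oxygen levels that did not pass its own test (limma adjusted p = 0.388). EIF2AK2 went the other way by more than any other member (log2 fold change -2.88 with SE 0.29 and limma adjusted p = 6.92e-08 and -2.77 with SE 0.29 and limma adjusted p = 1.86e-07 in normoxia), and that call held in every alternative.

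Of the signalling genes, IRF1, a transcription factor induced by interferon gamma as well, had 208, 202 and 267 in hypoxia EVs, 181, 274 and 293 in normoxia EVs, 117, 129 and 163 in hypoxia cells and 154, 100.3 and 116 in normoxia cells and was higher in EVs in every library (log2 fold change 0.73 with SE 0.25 and limma adjusted p = 0.0141 and 1.00 with SE 0.25 and limma adjusted p = 0.00208 in normoxia). STAT2 (ENSG00000170581, chromosome 12, 56341597 to 56360155) had 219, 199 and 252 in hypoxia EVs, 316, 324 and 334 in normoxia EVs, 328, 311 and 392 in hypoxia cells and 315, 338 and 294 in normoxia cells. Its hypoxia EV libraries all lay below the hypoxia cell libraries (log2 fold change -0.62 with SE 0.18 and limma adjusted p = 0.00462), while in normoxia the 2 compartments overlapped (0.04 with SE 0.18 and limma adjusted p = 0.847). IRF9 had 36.1, 28.9 and 58.01 in hypoxia EVs, 2.38, 10.8 and 9.77 in normoxia EVs, 27.6, 28.3 and 13.1 in hypoxia cells and 28.2, 22.04 and 20.2 in normoxia cells and was lower in normoxia EVs (log2 fold change -1.68 with SE 0.62 and limma adjusted p = 0.0262), with 12 reads over those 3 libraries.

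In the antiviral effectors MX2 had the largest difference of all 33 in hypoxia (log2 fold change 3.99 with SE 0.52 and limma adjusted p = 2.02e-06), and in normoxia it had 2.04 with SE 0.52 and limma adjusted p = 0.00256, with the 2 differences not told apart by their own test (limma adjusted p = 0.144). MX1 (3.85 in hypoxia and 2.47 in normoxia) and RSAD2 (3.64 and 1.75) were also higher, both having passed the filter only through their EVs, and ISG20 was called in hypoxia (1.88 with SE 0.33 and limma adjusted p = 5.87e-05). XAF1, a promoter of cell death that binds XIAP, had 167, 132 and 144 in hypoxia EVs, 4.76, 91.9 and 178 in normoxia EVs, 10.8, 13.9 and 4.72 in hypoxia cells and 5.03, 11.02 and 3.37 in normoxia cells. It was higher in EVs at both levels (log2 fold change 3.88 with SE 0.87 and limma adjusted p = 0.000672 and 2.75 with SE 0.87 and limma adjusted p = 0.0115 in normoxia), and normoxia EV replicate 1 overlapped the cells. IFITM1 had 65.5, 126 and 88.3 in hypoxia EVs, 112, 48.6 and 25.4 in normoxia EVs, 49.2, 30.4 and 36.7 in hypoxia cells and 59.4, 22.6 and 43.3 in normoxia cells and was called in hypoxia (log2 fold change 1.22 with SE 0.49 and limma adjusted p = 0.0336). IFI35 was higher in EVs at both levels (1.28 and 1.34).

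SAMD9, a cytoplasmic restriction factor of poxviruses, had 8.02, 30.4 and 7.57 in hypoxia EVs, 73.7, 3.603 and 43.00 in normoxia EVs, 92.5, 48.4 and 68.7 in hypoxia cells and 82.5, 113 and 76.5 in normoxia cells, lower in EVs in every library of its oxygen level (log2 fold change -2.35 with SE 0.75 and limma adjusted p = 0.00911 and -1.87 with SE 0.75 and limma adjusted p = 0.0396 in normoxia). IFIT1, which binds viral RNA that lacks cap methylation, had 22.7, 73.1 and 37.8 in hypoxia EVs, 73.7, 41.4 and 29.3 in normoxia EVs, 94.1, 84.4 and 67.7 in hypoxia cells and 114, 79.4 and 76.5 in normoxia cells and was called in hypoxia at a p close to the threshold (log2 fold change -1.01 with SE 0.43 and limma adjusted p = 0.0423). IFI44L had 25.4, 50.2 and 141 in hypoxia EVs, 4.76, 27.02 and 7.82 in normoxia EVs, 39.5, 55.6 and 32.5 in hypoxia cells and 31.7, 25.4 and 49.1 in normoxia cells and was called in normoxia (log2 fold change -1.64 with SE 0.64 and limma adjusted p = 0.0342). IFI6 had 20.04, 54.8 and 58.01 in hypoxia EVs and 30.9, 36.03 and 39.1 in normoxia EVs, below all cell libraries of the same oxygen level (log2 fold change -1.38 with SE 0.40 and limma adjusted p = 0.00506 and -1.54 with SE 0.40 and limma adjusted p = 0.00309 in normoxia). HERC5 was lower by a similar amount (log2 fold change -1.37 with SE 0.29 and limma adjusted p = 0.000368 and -1.86 with SE 0.29 and limma adjusted p = 2.08e-05 in normoxia).

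Several of these calls rest on single libraries. RSAD2 in normoxia was not called without any 1 of normoxia cell replicates 1, 2 and 3, hypoxia cell replicates 1 and 2, normoxia EV replicate 3 or hypoxia EV replicates 1, 2 and 3, nor with TMM factors, equal totals, no filter or cells paired with EVs. XAF1 in normoxia was lost without normoxia EV replicate 2 or 3. IRF9 was lost without any normoxia cell library or normoxia EV replicate 1, and IFI44L without replicate 1 or 3 of the normoxia cells or EVs. IFI44L was also not called with edgeR, DESeq2 or no filter. SAMD9 in normoxia was lost without any normoxia cell library, hypoxia cell replicate 3 or normoxia EV replicate 2, and with the replicate block, edgeR, DESeq2 or no filter. IFIT1 was lost without any 1 of the 6 cell libraries or hypoxia EV replicate 1 or 3, and with the replicate block, equal totals, DESeq2 or no filter. IFITM1 was lost without replicate 2 or 3 of the hypoxia cells or EVs, and IRF1 in hypoxia without hypoxia cell replicate 1 or hypoxia EV replicate 3. Both were also not called in hypoxia with TMM factors or edgeR, and IFITM1 with no filter. IFI35 was lost in hypoxia without hypoxia EV replicate 2 or with TMM factors, and in normoxia without replicate 2 of the normoxia cells or EVs. STAT2 in hypoxia and OAS3 in normoxia were not called with equal totals. OASL, EIF2AK2, HERC5, IFI6, MX1, MX2, OAS2 and OAS3 kept their calls at both levels without any single library. For OASL, MX1 and OAS2, which passed the filter only through their EVs, a kept call is a description and supports nothing.

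With the near-silent density subtracted from each gene, the higher calls in EVs came to 3 in hypoxia (OASL, XAF1 and RSAD2) and 1 in normoxia (OASL), and the lower calls to 11 and 8. Over all 23454 genes tested this way, 4059 were higher and 9993 lower in hypoxia, and 2918 and 6210 in normoxia. OASL, XAF1 and RSAD2 passed the filter only through their EVs, so their higher calls remain descriptions. MX2 was then at -0.92 in normoxia, OAS3 at -0.05 and IRF1 at -0.40 in hypoxia on the log2 scale, none of them called. OASL, EIF2AK2, HERC5 and IFI6 kept their calls in both contrasts with that subtraction.

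Last, the hypoxia response in EVs was set against that in cells. The difference passed for 0 of the 33 members by limma, against 2.31% of the 24171 genes tested (0.443% higher, 1.87% lower), and for 0 by edgeR. The unadjusted p was under 0.05 for 5 members. DESeq2 called 1, STAT2, lower in EVs, as did limma with TMM factors. STAT2 had a log2 difference of -0.66 (SE 0.25, limma adjusted p = 0.146) and MX2 of 1.95 (SE 0.74, limma adjusted p = 0.144). Without normoxia EV replicate 3 limma called 4, all higher in EVs, which were RSAD2, ISG20, MX2 and IRF9. Over all 24171 genes that fit called 2338 higher and 3158 lower, so more calls there are not particular to the members. These contrasts share libraries with those above, so the values are given side by side and not counted as further support.

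Some members share sequence or exons with other genes, and their reads may have been split. IFITM1, IFITM2 and IFITM3 lie next to each other on chromosome 11, and 32.0%, 34.1% and 17.4% of their windows of 50 bases also occur in another gene. USP18 shares 23.0% of its windows with USP41 and IRF9 43.2% with the read-through gene AL136295.5. MX1 shares 0.213% with MX2, EIF2AK2 shares 0.893% with any other gene, and OASL, HERC5 and IFI6 share 0%. Lengths are the union of annotated exons, which overstates the length, and so lowers RPKM, for genes with long or retained-intron transcripts such as MX2 (13047 bases), EIF2AK2 (10753) and IFI44L (10240).

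Around these genes, 102 others of the interferon pathway were counted from lists of ligands, receptors and kinases, nucleic acid sensors, negative regulators, gamma-type and antigen presentation genes, and further induced genes. In cells 70 were tested, of which 4 were higher and 11 lower in hypoxia (median log2 fold change -0.08). Of 11 sensor genes tested 3 were lower, the ubiquitin ligase TRIM25 (-0.25), the adaptor MAVS (-0.25) and the Toll-like receptor adaptor TICAM1 (-0.66). Of 11 negative regulators 2 were lower, RNF125 (-0.57) and the nucleotide hydrolase SAMHD1 (-0.22). Of 13 gamma-type genes B2M, the light chain of MHC class I, was lower (-0.22), and HLA-C (0.19) and the GTPase GBP2 (1.15) were higher. Of 24 further induced genes 4 were lower and 2 higher, with ZC3HAV1, an antiviral zinc finger protein, at 1221 ± 45.2 in hypoxia cells and 1779 ± 103 in normoxia cells (log2 fold change -0.54 with SE 0.07 and limma adjusted p = 5.38e-10). TRIM14 (-0.74), TMEM140 (-0.46) and LGALS3BP (0.36) also passed. These shares, too, stand beside 30.4% of all genes called in cells.

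In EVs 87 of the 102 were tested, of which 5 were higher and 4 lower in hypoxia (median 0.08 against 0.60 for all genes). Over all genes tested 12.3% were called, 5.68% higher and 6.62% lower, so these counts are near the share of genes at large. Without normoxia EV replicate 2, or with the near-silent density subtracted, 0 of all genes tested were called higher, so the 5 higher calls end there. The 5 were DHX58, a relative of the RNA sensor RIG-I, NLRC5 and CIITA, which activate MHC genes, PARP14 and SP100. DHX58 had 168 ± 31.2 in hypoxia EVs and 63.2 ± 43.5 in normoxia EVs (log2 fold change 1.76 with SE 0.55 and limma adjusted p = 0.041), and 11.1 ± 3.705 and 9.22 ± 4.08 in hypoxia and normoxia cells. NLRC5 had 559 ± 95.6 in hypoxia EVs and 213 ± 82.3 in normoxia EVs (log2 fold change 1.46 with SE 0.30 and limma adjusted p = 0.0137). CIITA (1.39), PARP14 (1.83) and SP100 (1.57) followed, and all 5 averaged under 50 in both cell groups. The 4 lower were SOCS1, which inhibits JAK kinases (-1.54), the phosphatase PTPN11 (-0.78), HLA-B (-0.78) and HLA-C (-0.97). The HLA genes vary between people and resemble each other, so their reads may have been split. None of the 11 receptor and kinase genes passed in EVs, with TYK2 at the smallest adjusted p (log2 fold change -0.60 with SE 0.23 and limma adjusted p = 0.0746). Human GBP1, a gamma-induced GTPase whose symbol is also in the name of the vector, had 43 reads over the hypoxia cells and 34 over the normoxia cells. No source used here says what the vector's GBP1 is.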

How the data were processed

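Long RNA from TRIzol cell extracts and from EVs isolated with exoRNeasy columns was made into libraries with a SMARTer stranded total RNA kit, per the labels' protocols. The submitters' processing notes name Bowtie 0.12.2 and DESeq2 1.30.1, and as builds GRCh38 and hg38. No source used here gives the counter, its annotation or its strand setting. The deposited values are a signal: the authors' read counts per gene divided by 1 factor per library. Dividing by the unit of 1 read gave whole reads for 100% of values (tolerance 0.01), and RPKM uses those reads with GENCODE 29 exon lengths. IDs were matched to GENCODE 29 for 52338 of 57773.

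Tests were limma 3.58.1 (R 4.3.3, trend) on log2(value + 1), with a pseudocount of 1, for genes averaging 10 or more over the fitted libraries, and Benjamini-Hochberg adjustment over all genes tested at 0.05. Fold changes are on that log2 scale and understate low genes. Hypoxia contrasts used the 6 libraries of one compartment, and the others all 12. edgeR 4.0.16 and DESeq2 1.42.0 were run on the recovered reads as alternatives, and called 4 and 4 members in cells, 2 and 3 in EVs. The fitting code was tested on simulated data. Other alternatives were pseudocounts, filters, scalings, each replicate left out, subtraction of the near-silent density, a replicate block and, chosen after seeing the data, a block pairing cells with EVs. The floor of 3 reads (1.44 to 7.57 units by library) covers counting error only. Intervals are the log2 fold change plus or minus the normal quantile times the limma SE. They measure the spread between libraries, and are narrower than limma's own t distribution would give. Every member is given, with all values for the called and the highest ones and ranges for the rest. The members and lists were chosen with earlier results of these data known. The result of 1 pathway gene is not reported here.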

Additional observations from a re-analysis of the deposited data

How the results depend on the processing

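Over the members' called results, 884 values under alternatives held 757 with the same direction and side of the threshold, 124 that no longer passed and 3 that changed sign. The 3 came with the near-silent density subtracted, and were MX2 in EVs against cells in normoxia (-0.92), OAS3 in hypoxia (-0.0536) and IRF1 in hypoxia (-0.40), and the cause was not tested. Results not called are outside this count. In EVs STAT2 (-1.22 to 0.02), IFIT5 (-1.23 to 0.06) and CMPK2 (-2.52 to 1.43) took both signs between hypoxia and normoxia. So did BST2, EIF2AK2, HERC5, IFI44, IFI6, IFIH1, IFIT1, IFIT2, IFIT3, IFITM2, IRF1, OAS3 and USP18. Members called between hypoxia and normoxia cells numbered 4, with 2 at a filter of 50 (fewer genes tested), 2 with that density subtracted, 0 in a fit of 12 libraries, and 2 to 4 with 1 replicate left out. In cells the fit of 12 libraries called only 66 genes higher and 35 lower of all 17260. In EVs the count of 4 became 2 with a pseudocount of 0.5, 7 with 5, 7 with equal totals, 2 with edgeR and 0 with the density subtracted. All 27904 genes gave 923 higher and 1435 lower with a pseudocount of 0.5, 2946 and 2365 with 5, and 1026 and 2477 with edgeR. The members called in EVs became 9 in a fit of 12 libraries, 8 higher and 1 (STAT2) lower, and 0 to 9 with 1 replicate left out. That fit of 12 libraries called 4905 genes higher and 4419 lower of all 27904 in EVs, so its added calls are not particular to the members. For EVs against cells, 15 in normoxia became 9 with the density subtracted and 11 to 17 with 1 replicate left out, and 18 in hypoxia became 16 to 20 with 1 replicate left out, and 3 higher and 11 lower with the density subtracted. For the difference of responses, 0 became 1 with TMM factors, 1 with DESeq2, 1 with the density subtracted, and 0 to 4 with 1 replicate left out. Over all 24171 genes it was 160 higher and 1607 lower with TMM factors, and 515 and 1674 with DESeq2. With the density subtracted it was 236 and 1731 of 23454. Deviations from the group means correlated at -0.117 to 0.061 between libraries that share a replicate number. With 3 libraries per group such correlations cannot decide whether libraries of 1 number came from 1 culture. With the replicate block the counts were 4 in cells, 7 in EVs, 14 and 18 for EVs against cells in normoxia and hypoxia and 0 for the difference. In EVs that block called 2776 genes higher and 2633 lower of all 27904. A block pairing cells with EVs of 1 number, chosen after seeing the data, gave 14 and 19. EV depth limits members with few reads.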

Other observations

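The lambda interferon genes, ligands of the IFNLR1 and IL10RB receptor, were picked out after their values were seen. IFNL1 had 96.2, 31.97 and 124 in hypoxia EVs, 45.2, 21.6 and 29.3 in normoxia EVs, 3.25, 1.03 and 2.098 in hypoxia cells and 4.03, 0 and 1.44 in normoxia cells. All EV libraries held more than any cell library, with 142 reads over hypoxia EVs, 46 over normoxia EVs, 12 over hypoxia cells and 11 over normoxia cells. IFNL2 averaged 34.4 ± 21.2 in hypoxia EVs, 7.07 ± 4.24 in normoxia EVs, 0.35 ± 0.606 in hypoxia cells and 0.344 ± 0.3 in normoxia cells, and IFNL3 56.8 ± 8.74, 29.6 ± 22.6, 1.201 ± 2.08 and 0.528 ± 0.553 in the same order (SD, n = 3 each). As near-identical copies these genes may share reads. Of 9 interferon ligand genes 0 passed the filter in cells and these 3 passed it in EVs, through the compartment where they are high, so no test of EVs against cells is given. Between hypoxia and normoxia EVs IFNL1 was not called (log2 fold change 1.22 with SE 0.66 and limma adjusted p = 0.181).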
